A study of Rattus norvegicus with 4 samples.

Results

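The genes of glycolysis, of the pyruvate step that follows it and of the pentose phosphate pathway were followed in rat brain after intracerebral hemorrhage, in which blood escapes into the brain. Members were chosen by name from a list of 37 genes, and 35 of them had a row in a table of 17853 genes; Pdha1 and Pgd were not matched to a row by symbol. Ipsilateral brain tissue, from where the bleeding was, and contralateral tissue, from across the midline, came from rats 13 months old (adult) and 21 months old (old), so that all 4 groups carried the hemorrhage and no group came from rats without one. Each of the 4 groups was 1 library of polyadenylated RNA. Per the labels' protocols RNA of 9 rat brains was pooled in equal amounts, and whether each library drew on all 9 is not stated. The sources used here do not give the hemorrhage model, strain, sex or time after bleeding. With no repeat of any group the values carry no error.

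Glycolysis splits glucose into pyruvate in the cytosol and yields ATP without oxygen. Its pace is set mainly by hexokinase and phosphofructokinase, and several of its steps are served by isozymes that differ between cell types. Pyruvate is then either turned into lactate by lactate dehydrogenase or passed by the pyruvate dehydrogenase complex into the mitochondrial citrate cycle. The pentose phosphate pathway leaves glycolysis at glucose 6-phosphate. Its oxidative branch makes NADPH, which feeds antioxidant defence and the oxidase of phagocytes, and its non-oxidative branch exchanges sugars with glycolysis and makes ribose for nucleotides. In brain, neurons are known for oxidising fuel, whereas astrocytes and activated immune cells are known for high glycolysis.

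Values are RPKM, read numbers scaled to gene length and library size, as made by the authors. Since RPKM is per length, levels of different genes can be set side by side, save where near-identical copies make a level uncertain. The depth of the libraries is unknown. RPKM summed to between 388632 and 402100 per library, of which mitochondrially encoded genes took 18.5% and 20.6% ipsilaterally and 23.3% and 24.1% contralaterally, 13 months first. The defining genes of neurons, astrocytes and oligodendrocytes were present in every library, with 16 of 16, 10 of 10 and 10 of 10 listed genes at a mean of at least 1 RPKM. At each age the sides were compared by a log2 ratio, ipsilateral over contralateral, with 1 RPKM first added to each value, which understates the change of low genes. That comparison of single libraries has no test. As a secondary summary, limma modelled side and age, without an interaction, in all 4 libraries for the 12160 genes averaging 1 RPKM or more, with Benjamini-Hochberg adjustment over all of them. In this fit the ages stand in for repeats of a side, and its 1 residual degree of freedom holds how the side effect differs by age. The fit also draws the spread of each gene toward a value common to all genes tested. A printed SE is therefore not the gene's own spread alone. Below, "rose" and "fell" are used of genes at an adjusted p under 0.05 in limma. Pooled tissue cannot tell more cells of a type from more RNA per cell.

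Hexokinases 2 and 3, the regulatory enzyme gene Pfkfb3 and 3 pentose phosphate genes, Taldo1, Tkt and Rpia, rose on the bleeding side, while the trunk of glycolysis and the pyruvate dehydrogenase genes did not pass the test. Of the 35 members, 31 reached a mean of 1 RPKM; Pfkfb1, Pgam2, Eno2 and Tpi1 did not. In limma 6 of these 31 rose, a share of 19.4% against 13.3% of all genes tested, and 0 fell, against 0.814% of all genes; at an unadjusted p under 0.05, 9 members were higher and 0 lower, but 8 and 2 with median-ratio scaling, and 7 and 3 both with rescaling to the sum without mitochondrially encoded genes and with no filter on low values. A log2 side ratio of at least 1 was reached by 3 members at 13 months (Hk2, Hk3 and Pfkfb3, against 7.19% of all genes) and by 3 at 21 months (Hk2, Hk3 and Taldo1, against 5.61%). Under either rescaling only Hk3 did so at 21 months, with Hk2 at 0.99 and Taldo1 at 0.91 or 0.90. No member reached -1 at either age (against 0.0658% and 0.288% of all genes), and Hk2 and Hk3 reached 1 at both ages as deposited (against 4.75%). At a smaller ratio of 0.5 there were 8 members at 13 months (against 15.2%), 7 at 21 months (against 16.3%) and 6 at both ages (19.4%, against 10.7%), these being the genes that rose. Pdk2 alone was at or under -0.5 at 13 months (against 4.09%), and 0 members were at 21 months (against 2.94%) or at both ages (against 0.247%). In sign alone, 15 members (48.4%) were above 0 at both ages, against 38.4% of all genes, and 9 (29%) below 0 at both, against 26.5%, the latter being Hk1, Pfkp, Pfkfb2, Pkm (by its entry on chromosome 8), Ldhb, Pdhb, Dlat, Dld and Pdp1. The shares of members thus lay near those of all genes in most of these counts. The median log2 side ratio of the 31 members was 0.08 at 13 months and 0.19 at 21 months, beside 0.01 and 0.09 over all genes tested. Hk3 and Pfkfb4 were under 1 RPKM contralaterally and passed the filter through their ipsilateral values, so these counts are given as a description. Without any filter on low values limma called 0 of 17853 genes, with 2641 higher and 719 lower before adjustment (p under 0.05), and the 6 members then had adjusted p between 0.0945 and 0.137.

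**Figure D1:**
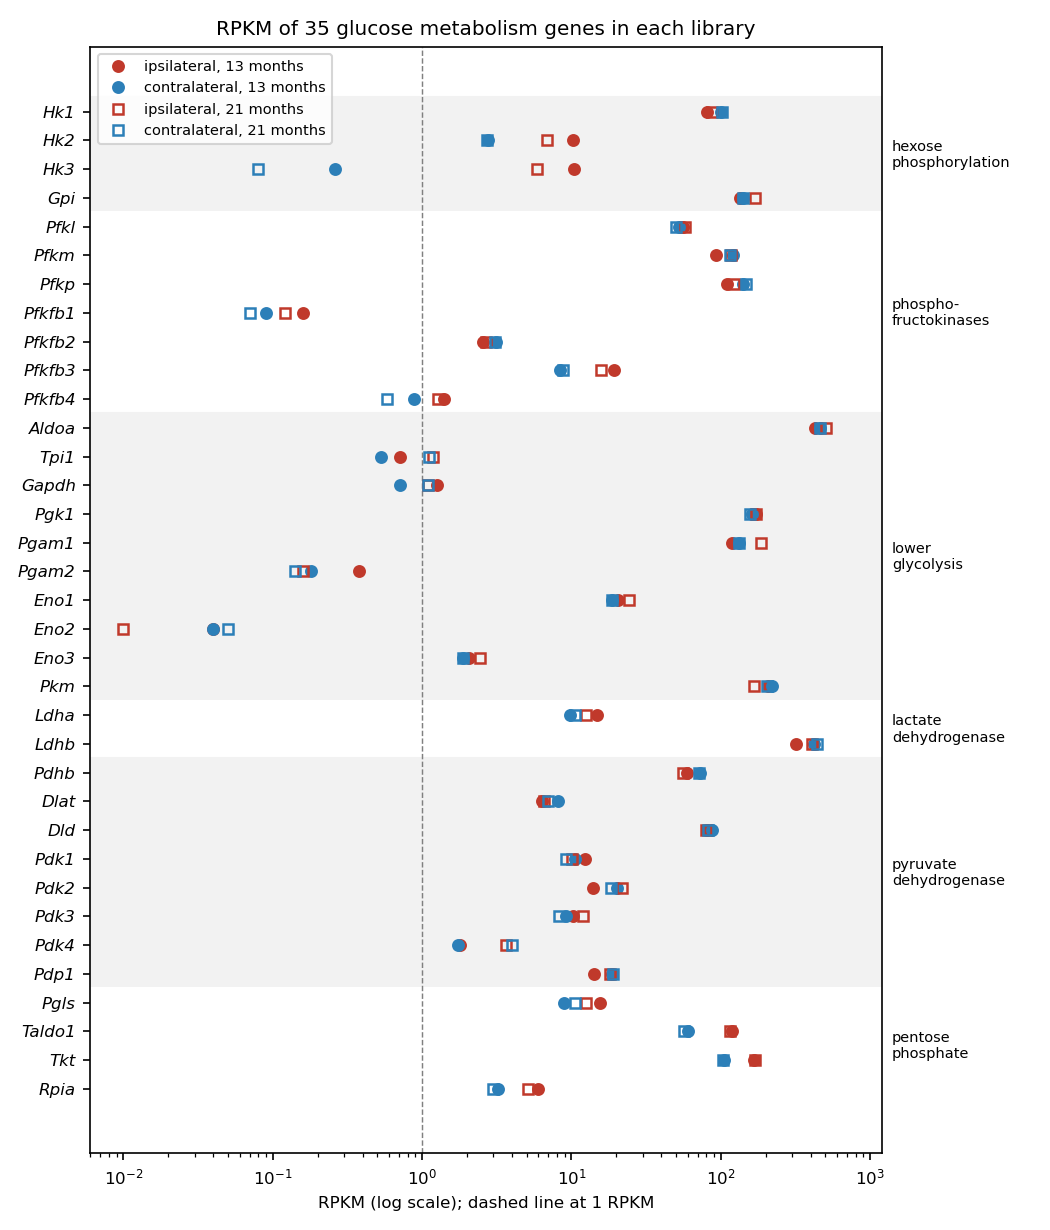
RPKM on a log scale (x axis) of the 35 genes in the table (y axis), grouped by their step, with 1 point per library: circles for 13 months, open squares for 21 months, red for ipsilateral and blue for contralateral. Red and blue points lie apart for Hk2, Hk3, Pfkfb3, Taldo1, Tkt and Rpia and close together for Aldoa, Pgk1 and Dld, while Gapdh, Tpi1 and Eno2 lie at or below 1.25 RPKM in every library.

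Hexokinases trap glucose in the cell as glucose 6-phosphate, and their total level was alike in all libraries while its makeup differed by side. Hk1 (ENSRNOG00000046891, chromosome 20), the main hexokinase of brain, had 80.2 RPKM in the ipsilateral and 101 RPKM in the contralateral library at 13 months, and 87.2 and 101 RPKM at 21 months. Both ipsilateral libraries were lower than both contralateral ones, with a limma log2 change of -0.27 ± 0.17 (SE, 2 libraries per side) that did not pass (adjusted p = 0.368). Hk2 (ENSRNOG00000006116, chromosome 4), an inducible hexokinase that can bind to mitochondria, had 10.2 and 2.77 RPKM at 13 months and 6.84 and 2.71 RPKM at 21 months. The contralateral libraries were close to each other and both ipsilateral ones were higher, by a ratio of 3.67 at 13 months and 2.52 at 21 months. Hk2 rose by 1.32 ± 0.18 on the log2 scale in limma (adjusted p = 7.0e-06). Hk3 (ENSRNOG00000026235, chromosome 17), which the table describes as the hexokinase of white cells, had 10.3 and 0.26 RPKM at 13 months and 5.85 and 0.08 RPKM at 21 months. Its fitted log2 change was 2.92 ± 0.18, which is a description only, since Hk3 passed the filter on low values through its ipsilateral libraries and its contralateral values are near 0. Summed over Hk1, Hk2 and Hk3 the level was 100.7 RPKM ipsilaterally and 103.9 RPKM contralaterally at 13 months, and 99.9 and 104.2 RPKM at 21 months. Within this sum Hk1 took 97.1% and 97.3% contralaterally but 79.6% and 87.3% ipsilaterally, 13 months first. The share of Hk3 was 10.3% at 13 months and 5.86% at 21 months on the ipsilateral side, against 0.25% and 0.08% contralaterally. Gpi, the isomerase that makes fructose 6-phosphate, had 135 and 140.3 RPKM at 13 months and 170.1 and 139.7 RPKM at 21 months, so that the 21 month ipsilateral library alone stood above the other libraries (adjusted p = 0.761 in limma).

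**Figure D2:**
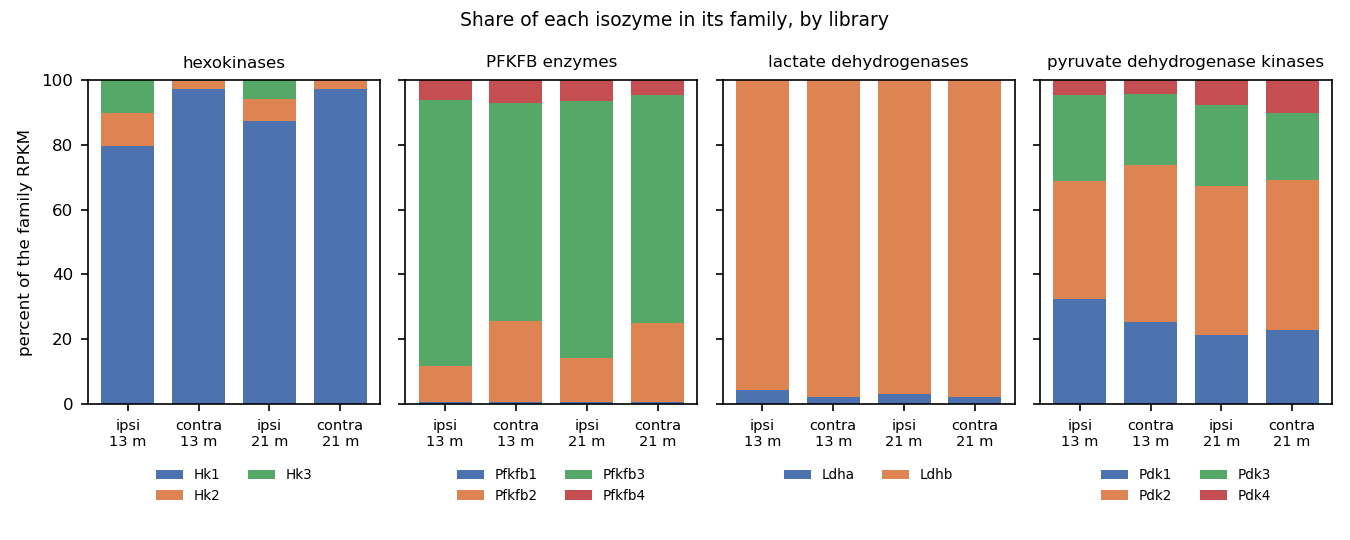
Percent of the summed RPKM of an isozyme family (y axis) taken by each of its genes, in each library (x axis), for hexokinases, PFKFB enzymes, lactate dehydrogenases and pyruvate dehydrogenase kinases; each bar sums to 100%. Hk2 and Hk3 take a larger share and Hk1 a smaller one in both ipsilateral libraries, Pfkfb3 gains over Pfkfb2 there, Ldhb takes at least 95.5% of its family in every library, and Pdk4 has its larger shares at 21 months on both sides. The split of Ldha and Ldhb is uncertain, since Ldha has 30 numbered pseudogenes.

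Phosphofructokinase commits sugar to glycolysis, and the PFKFB enzymes make and remove fructose 2,6-bisphosphate, its strongest activator. Of the 3 phosphofructokinase subunit genes none passed the test. Pfkl (liver type) had 55.4 and 52.2 RPKM at 13 months and 57.4 and 50.2 RPKM at 21 months. Pfkm (muscle type) was lowest in the 13 month ipsilateral library, with 93.3 RPKM there against 120.5 RPKM contralaterally, and had 116 RPKM on both sides at 21 months. Pfkp (platelet type) was lower in both ipsilateral libraries, at 111 and 122 RPKM, than in the contralateral ones, at 142 and 147 RPKM (log2 change -0.31 ± 0.17, adjusted p = 0.285 in limma). Among the activator enzymes Pfkfb3 (ENSRNOG00000018911, chromosome 17), the isozyme known for a kinase activity far above its phosphatase activity, had 19.1 and 8.40 RPKM at 13 months and 15.8 and 8.83 RPKM at 21 months. It rose by 0.94 ± 0.17 on the log2 scale (adjusted p = 3.54e-04 in limma), a ratio of 2.28 at 13 months and 1.79 at 21 months. Pfkfb2 had 2.55 and 3.11 RPKM at 13 months and 2.69 and 3.06 RPKM at 21 months. Pfkfb4 had 1.40 and 0.88 RPKM and 1.28 and 0.58 RPKM, with an adjusted p of 0.101 in limma, and of 0.00955 where 0.1 RPKM was added in place of 1. Pfkfb1 did not exceed 0.16 RPKM anywhere. The PFKFB sum was 23.2 and 12.5 RPKM at 13 months and 19.9 and 12.5 RPKM at 21 months, and Pfkfb3 took 82.3% and 79.5% of it ipsilaterally against 67.3% and 70.4% contralaterally.

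The enzymes of lower glycolysis, which turn fructose bisphosphate into pyruvate, passed in limma in 0 of the 7 genes tested. Over all genes 13.3% rose and 0.814% fell, so with 7 genes this count is a description. Aldoa, the aldolase that splits the sugar into trioses, had the highest level of all members in every library, with 429 and 459.95 RPKM at 13 months and 507 and 459 RPKM at 21 months. Pgk1, phosphoglycerate kinase and the first ATP-yielding step, had 173 and 163 RPKM at 13 months and 173 and 157 RPKM at 21 months, a log2 change of 0.11 ± 0.17 in limma. Pgam1, phosphoglycerate mutase, had 119 and 132 RPKM at 13 months but 187 and 133 RPKM at 21 months. Its 21 month ipsilateral library was the highest, and the side ratio was -0.15 on the log2 scale at 13 months and 0.49 at 21 months. Eno1, the widely expressed enolase, had 20.5 and 18.55 RPKM and 24.1 and 18.7 RPKM, and Eno3, the muscle enolase, had 1.87 to 2.45 RPKM. Pkm, which encodes the pyruvate kinase of brain, had 206 and 221 RPKM at 13 months and 168 and 203 RPKM at 21 months in its entry on chromosome 8. A second entry named Pkm, on chromosome 20, had 21.8 and 17.9 RPKM at 13 months and 16.3 and 21.6 RPKM at 21 months. Its log2 side ratio was thus above 0 at 13 months (0.27) and below 0 at 21 months (-0.38). Pgam2, the mutase of muscle, was at or under 0.38 RPKM.

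Gapdh, Tpi1 and Eno2 encode enzymes known as abundant in brain and yet stood near the floor of the table. Gapdh, glyceraldehyde 3-phosphate dehydrogenase, had 1.25 and 0.71 RPKM at 13 months and 1.10 RPKM on both sides at 21 months. Tpi1, triosephosphate isomerase, had 0.71 and 0.53 RPKM and 1.18 and 1.12 RPKM. Eno2, which the table describes as the neuronal enolase, was listed at 0.01 to 0.05 RPKM, while the neuronal genes Snap25 and Syt1 had 183 to 460.1 RPKM in the same libraries. Other rows of the table with the same enzyme descriptions were low as well: 9 rows described as Gapdh summed to between 3.81 and 5.53 RPKM, 2 described as triosephosphate isomerase to between 1.45 and 2.16 RPKM, and 1 described as gamma-enolase-like to at most 0.14 RPKM. RefSeq's GRCr8 gene table names 81 numbered pseudogenes of Gapdh, 31 of Eno1, 30 of Ldha, 19 of Pkm, 13 of Pgam1, 9 of Aldoa, 8 of Pgk1 and 3 of Tpi1, but 0 of Eno2. Of the genes that rose, Taldo1 has 2 and Tkt has 1. Ldhb, Dlat, Dld and Pgd have 1 each. The sources used here do not say how reads matching several copies were counted, and the part of such reads in these values was not tested. The levels of the genes with such copies are therefore uncertain, Pgam1, Aldoa, Pgk1, Ldha, Taldo1 and Tkt included. Eno2 has no numbered pseudogene by that count, but the gamma-enolase-like row shares its enzyme description. Whether reads were divided between these rows was not tested, and the low level of Eno2 was not tested further.

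Lactate dehydrogenase is a tetramer of A subunits, which favour lactate production, and B subunits, which favour its oxidation. Ldha (ENSRNOG00000013009, chromosome 1) had 14.9 and 9.76 RPKM at 13 months and 12.6 and 10.5 RPKM at 21 months. Both ipsilateral libraries were higher, with a log2 change of 0.40 ± 0.17 that did not pass in limma (adjusted p = 0.158). Ldhb (ENSRNOG00000013000, chromosome 4) had 316 and 418 RPKM at 13 months and 409 and 441 RPKM at 21 months. Both ipsilateral libraries were lower, with a log2 change of -0.25 ± 0.17 (adjusted p = 0.413). Ldha made up 4.50% of the pair at 13 months ipsilaterally and 2.28% to 2.98% elsewhere. With 30 numbered pseudogenes of Ldha and 1 of Ldhb, the level of Ldha and this split are uncertain.

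The pyruvate dehydrogenase complex joins 3 catalytic parts, and its kinases switch it off while its phosphatases switch it on. Of the 8 genes tested here 0 passed in limma, where 13.3% of all genes rose and 0.814% fell, so this count is a description. The median log2 side ratio of the 8 genes was -0.20 at 13 months and -0.04 at 21 months. Pdhb, of the first catalytic part, had 59.1 and 72.5 RPKM at 13 months and 55.75 and 71.35 RPKM at 21 months, lower in both ipsilateral libraries (log2 change -0.32 ± 0.17, adjusted p = 0.27). Dlat, the second part, had 6.36 and 8.11 RPKM at 13 months and 6.58 and 6.94 RPKM at 21 months. Dld, the third part, had 79.6 to 86.9 RPKM in all libraries. No row carried the symbol Pdha1, the catalytic alpha subunit, but 1 row on chromosome X described as its somatic form had 36.5 and 44.35 RPKM at 13 months and 41.65 and 42.9 RPKM at 21 months.

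No kinase gene passed the test. Pdk2, the most abundant kinase in the sum of the family, had 13.9 and 20.2 RPKM at 13 months and 21.9 and 18.4 RPKM at 21 months. The 13 month ipsilateral library was its lowest and the 21 month ipsilateral one its highest, so that its log2 side ratio was -0.51 at 13 months and 0.24 at 21 months. Pdk1, a kinase gene known as a hypoxia target, had 12.4 and 10.5 RPKM and 10.1 and 9.14 RPKM. Pdk3 had 10.2 and 9.15 RPKM at 13 months and 11.9 and 8.22 RPKM at 21 months (adjusted p = 0.304 in limma). Pdk4, known to follow fasting and fat use, had 1.80 and 1.75 RPKM at 13 months and 3.65 and 4.01 RPKM at 21 months, so that both 21 month libraries were above both 13 month ones. The phosphatase gene Pdp1 was lowest at 13 months ipsilaterally, with 14.1 RPKM, and had 18.15 to 18.9 RPKM elsewhere.

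The pentose phosphate genes were higher on the bleeding side at both ages, and 3 of the 4 members tested rose in limma, where 13.3% of all genes rose and 38.4% were above 0 at both ages. With 4 genes this count is a description. Taldo1 (ENSRNOG00000018367, chromosome 1), the transaldolase of the non-oxidative branch, had 119.7 and 60.35 RPKM at 13 months and 115 and 56.3 RPKM at 21 months. Both ipsilateral libraries were about the same distance above the contralateral ones, a ratio of 1.98 and 2.04, and Taldo1 rose by 0.99 ± 0.17 on the log2 scale (adjusted p = 1.4e-04). Tkt (ENSRNOG00000016064, chromosome 16), the transketolase that works beside it, had 166 and 106 RPKM at 13 months and 169 and 104 RPKM at 21 months. It rose by 0.67 ± 0.17 (adjusted p = 0.00695 in limma), a ratio of 1.57 and 1.63. Rpia (ENSRNOG00000005576, chromosome 4), the isomerase that makes ribose 5-phosphate, had 5.99 and 3.23 RPKM and 5.12 and 2.99 RPKM, and rose by 0.67 ± 0.17 (adjusted p = 0.00733). Pgls, the lactonase of the oxidative branch, had 15.6 and 8.92 RPKM at 13 months but 12.4 and 10.6 RPKM at 21 months, and did not pass (log2 change 0.48 ± 0.18, adjusted p = 0.0857). The 4 genes together summed to 307 and 178 RPKM at 13 months and to 302 and 174 RPKM at 21 months.

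**Figure D3:**
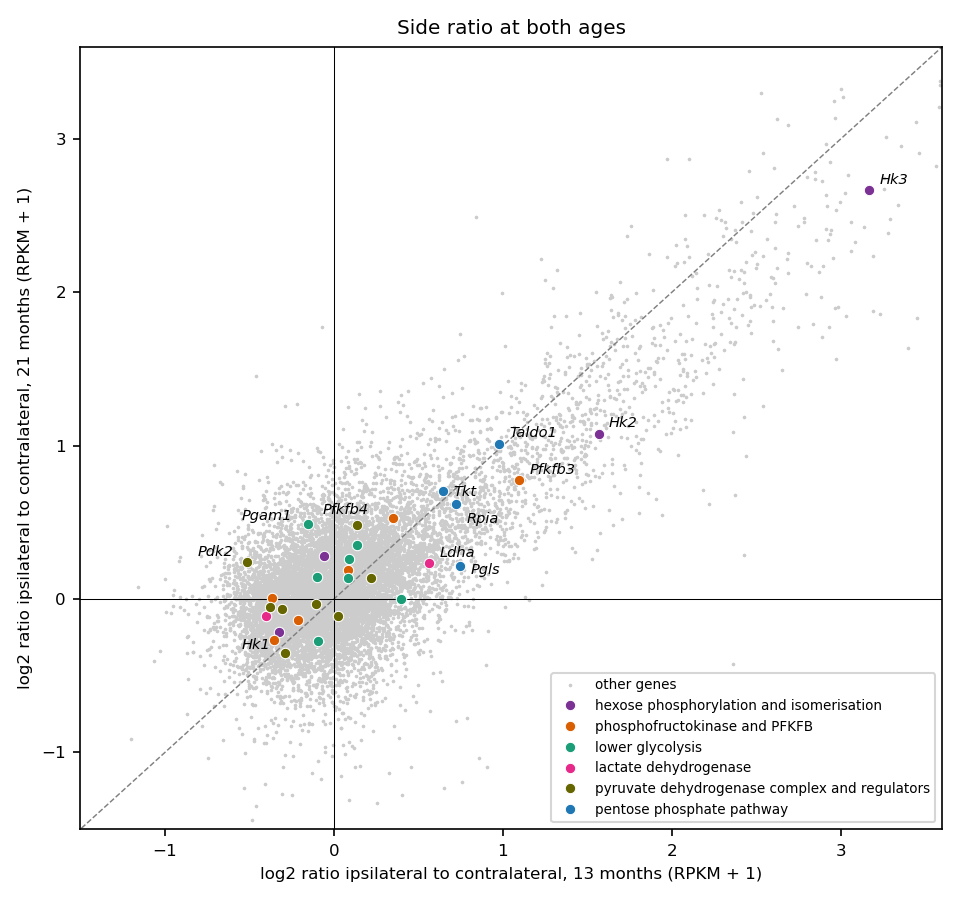
Side ratio on the log2 scale, ipsilateral over contralateral with 1 RPKM added, at 13 months (x axis) and at 21 months (y axis), with 1 grey point for each of 12160 genes and coloured points for the 31 genes of glucose metabolism tested; the dashed line marks equal ratios, and 35 genes lie outside the axes. Hk3 (3.17 and 2.67), Hk2 (1.57 and 1.08), Pfkfb3 (1.10 and 0.77) and the pentose phosphate genes Taldo1 (0.98 and 1.01), Tkt (0.65 and 0.70) and Rpia (0.72 and 0.62) lie to the upper right, and most other members lie near the origin.

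Promoter sequence was set beside these changes to show what the upstream DNA of the changed genes holds. Among RefSeq's GRCr8 promoters, 32 of the 35 members had 36 windows of the 250 bases before a gene start. They were searched on both strands for ACGTG and GCGTG, the core letters of the hypoxia response element, to which hypoxia-inducible factors bind. CACGTG holds the core on both strands and counts as 2 overlapping matches. A match was found in 20 of the 36 windows (55.6%), against 36.7% of all 33469 such windows, and in 19 of the 32 genes. The windows were not matched in base composition, and the share per gene over all promoters was not counted. These shares are therefore a description. The letters TGACNNNGC, the core of the antioxidant response element, were found in 1 of the 36 windows, that of Pdhb, against 10.1% of all windows. Windows are shown of the 5 changed genes with the highest fitted changes that had one, and of Ldha for comparison, 5′ to 3′ on the gene's strand, with matches to ACGTG or GCGTG and their reverse complements in capitals. They lie at chr17:9604781-9605030 (plus strand, Hk3), chr4:116841276-116841525 (minus strand, Hk2), chr17:71944683-71944932 (plus, Pfkfb3), chr1:205922946-205923195 (plus, Taldo1), chr16:5729982-5730231 (plus, Tkt) and chr1:106507842-106508091 (plus, Ldha) of GRCr8.
Hk3: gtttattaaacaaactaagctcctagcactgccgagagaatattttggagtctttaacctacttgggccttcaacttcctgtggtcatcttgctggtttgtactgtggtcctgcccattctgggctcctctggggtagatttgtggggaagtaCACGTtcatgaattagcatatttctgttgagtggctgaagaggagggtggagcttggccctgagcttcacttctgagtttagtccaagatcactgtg
Hk2: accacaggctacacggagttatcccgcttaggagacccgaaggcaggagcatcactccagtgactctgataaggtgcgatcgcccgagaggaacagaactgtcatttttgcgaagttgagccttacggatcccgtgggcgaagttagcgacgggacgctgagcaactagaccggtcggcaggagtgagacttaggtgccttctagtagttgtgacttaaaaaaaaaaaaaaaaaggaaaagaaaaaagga
Pfkfb3: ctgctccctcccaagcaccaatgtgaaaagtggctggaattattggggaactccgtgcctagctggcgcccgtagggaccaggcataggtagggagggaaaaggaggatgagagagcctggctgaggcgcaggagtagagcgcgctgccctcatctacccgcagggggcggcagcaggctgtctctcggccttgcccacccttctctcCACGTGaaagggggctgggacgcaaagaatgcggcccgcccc
Taldo1: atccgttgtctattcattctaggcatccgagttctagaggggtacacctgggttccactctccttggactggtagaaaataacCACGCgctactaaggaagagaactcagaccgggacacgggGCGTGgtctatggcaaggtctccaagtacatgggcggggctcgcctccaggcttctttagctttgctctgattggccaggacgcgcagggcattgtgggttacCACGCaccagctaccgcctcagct
Tkt: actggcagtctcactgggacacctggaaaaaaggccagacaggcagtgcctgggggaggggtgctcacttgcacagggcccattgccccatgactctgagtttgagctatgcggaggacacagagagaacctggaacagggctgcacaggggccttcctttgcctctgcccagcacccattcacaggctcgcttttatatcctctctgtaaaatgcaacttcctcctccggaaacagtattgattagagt
Ldha: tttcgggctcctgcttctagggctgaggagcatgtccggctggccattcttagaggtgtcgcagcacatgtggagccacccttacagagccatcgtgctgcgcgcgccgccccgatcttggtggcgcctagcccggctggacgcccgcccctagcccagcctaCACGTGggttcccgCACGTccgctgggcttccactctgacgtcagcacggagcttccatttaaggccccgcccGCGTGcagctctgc
Pfkfb3 held CACGTG with its first base 42 bases before the gene start. Taldo1 held 3 separate matches, Hk3 held 1, and Hk2 and Tkt held none in this window. Ldha, which did not pass the test, held 4 matches, of which 2 overlap in CACGTG. A match is a description of these letters and not a measured binding site, and members with a match were found among those that rose and those that did not.

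Genes next to these steps were counted in lists of their own. Of 9 other pentose phosphate and NADPH genes tested 4 rose and 0 fell, where 13.3% of all genes rose and 0.814% fell. With 9 genes this count is a description. Their median log2 side ratio was 0.31 at 13 months and 0.38 at 21 months, beside 0.01 and 0.09 over all genes tested. Nampt, which makes an NAD precursor, rose by 0.88 on the log2 scale (adjusted p = 6.9e-04 in limma), Idh1, the cytosolic NADPH-yielding isocitrate dehydrogenase, by 0.69, H6pd, an NADPH-making enzyme of the endoplasmic reticulum, by 0.58 and the ribokinase gene Rbks by 0.54. The change of H6pd is a description only, since H6pd had 0.76 and 0.67 RPKM contralaterally and passed the filter through its ipsilateral libraries. The lowest in that list was Prps1, at log2 ratios of -0.25 and -0.03. The row of Rpe, the epimerase of the non-oxidative branch, had 15.8 and 10.4 RPKM at 13 months and 11.1 and 9.55 RPKM at 21 months and did not pass (adjusted p = 0.189).

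Of 11 tested genes of glucose and monocarboxylate transport 4 rose and 0 fell, where 13.3% of all genes rose and 0.814% fell. Slc16a3, the lactate exporter MCT4, had 7.18 and 0.53 RPKM at 13 months and 4.57 and 0.54 RPKM at 21 months. Its fitted log2 change of 2.14 ± 0.18 is a description only, since Slc16a3 passed the filter on low values through its ipsilateral libraries. The fructose transporter gene Slc2a5, a gene of microglia in brain, rose by 1.06, and Emb, a partner of monocarboxylate transporters, by 0.96. Slc16a1, the transporter MCT1, had 32.6 RPKM at 13 months ipsilaterally and stayed between 12.6 and 14.3 RPKM elsewhere, so its fitted rise of 0.71 ± 0.21 (adjusted p = 0.02) rested on 1 library, with log2 side ratios of 1.25 and 0.18. The glucose transporter genes Slc2a1 of vessels and glia (0.47 and 0.30, adjusted p = 0.169) and Slc2a3 of neurons (-0.26 and -0.08, adjusted p = 0.62) did not pass.

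The remaining lists are given beside the 13.3% of all genes that rose. Of 15 genes of glycogen metabolism 3 rose, namely Pygl, the liver-type glycogen phosphorylase (10.5 and 3.17 RPKM at 13 months, 7.63 and 3.45 RPKM at 21 months), Stbd1 and Gyg1, the glycogenin gene. Pygm, the muscle-type phosphorylase, had ratios of -0.33 and -0.14 and did not pass. Of 16 other glycolytic and gluconeogenic genes 2 rose, the glycerol phosphate dehydrogenase gene Gpd1 by 0.85 and the phosphoglucomutase gene Pgm2 by 0.70, and their median ratio was -0.06 at 13 months and 0.14 at 21 months. The list of other pyruvate dehydrogenase genes also held Acss1 and Acss2, acetyl-CoA synthetase genes that are not part of the complex. Of its 6 tested genes 0 passed in limma. Among those with the same sign at both ages Acss1 (0.11 and 0.17) and Lias (-0.05 and -0.11) stood at the ends, ranked by the smaller ratio. Of 17 hypoxia response genes outside glucose metabolism 2 rose, Hif1a itself by 0.67 and the peptide gene Adm by 0.84, while Vegfa (-0.24 and -0.08) and Bnip3 (-0.19 and -0.10) did not pass. The median of this list was 0.02 at 13 months and 0.06 at 21 months, beside 0.01 and 0.09 over all genes tested.

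Markers of cell types were read beside these changes, and beside the 13.3% of all genes that rose and the 0.814% that fell. Of 16 tested genes of microglia or macrophages 15 rose and 0 fell, Tmem119 being the one that did not pass, and their summed level was 1369 and 277 RPKM at 13 months and 1050.3 and 227 RPKM at 21 months, ipsilateral first. Lyz2 alone had 548 and 56.1 RPKM of this sum at 13 months and 250 and 30.1 RPKM at 21 months. None of the microglia or macrophage genes was at 0 in both ipsilateral libraries, and Cd68 had 35.8 and 1.56 RPKM at 13 months. Msr1 had 0.71 and 0.46 RPKM contralaterally and passed the filter through its ipsilateral libraries. Of 3 tested neutrophil genes 3 rose, with a sum over the 9 listed genes that were in the table of 61.5 and 4.88 RPKM at 13 months and 36.6 and 8.74 RPKM at 21 months, while the granule genes Mpo and Ltf were at or under 0.04 RPKM in every library. S100a9 (31.7 RPKM), S100a8 (19.4 RPKM) and Csf3r (9.34 RPKM) carried most of the 13 month ipsilateral sum. The untested genes went both ways. Cxcr2 was higher ipsilaterally (0.38 and 0.01 RPKM at 13 months). Ngp was lower at both ages (0.06 and 0.17, 0.06 and 0.21 RPKM), and Camp at 21 months (0.17 and 0.31 RPKM) but not at 13 months (0.42 and 0.08 RPKM). Of 16 neuron genes 2 fell, Nefm and Nefh, and the summed neuron level was 1902 and 2627 RPKM at 13 months and 2159 and 2533 RPKM at 21 months. All 16 neuron genes were below 0 in log2 ratio at 13 months and 13 of 16 at 21 months. Astrocyte and oligodendrocyte genes passed in 0 of 10 and 0 of 10, and summed oligodendrocyte levels were 2199 and 2644 RPKM at 13 months but 2947 and 2489 RPKM at 21 months. Of 7 endothelial genes 0 passed, with a sum of 37.4 and 28.5 RPKM at 13 months and 32.1 and 29.75 RPKM at 21 months. Choroid plexus genes fell in 5 of 9, with sums of 678 and 1231 RPKM and of 1076 and 1812 RPKM. Most of these sums was Ttr, with 656 and 1200 RPKM at 13 months and 1049 and 1767 RPKM at 21 months. In log2 ratio 2 of the 9 genes were above 0 at 13 months and 1 at 21 months. Of 2 tested skeletal muscle genes 1 fell, as did 1 of 3 tested red blood cell genes. The part of these cell types in the values of Hk2, Hk3, Pfkfb3, Taldo1, Tkt and Rpia, or in the lower values of Hk1, Pfkp, Ldhb and Pdhb, was not tested.

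**Figure D4:**
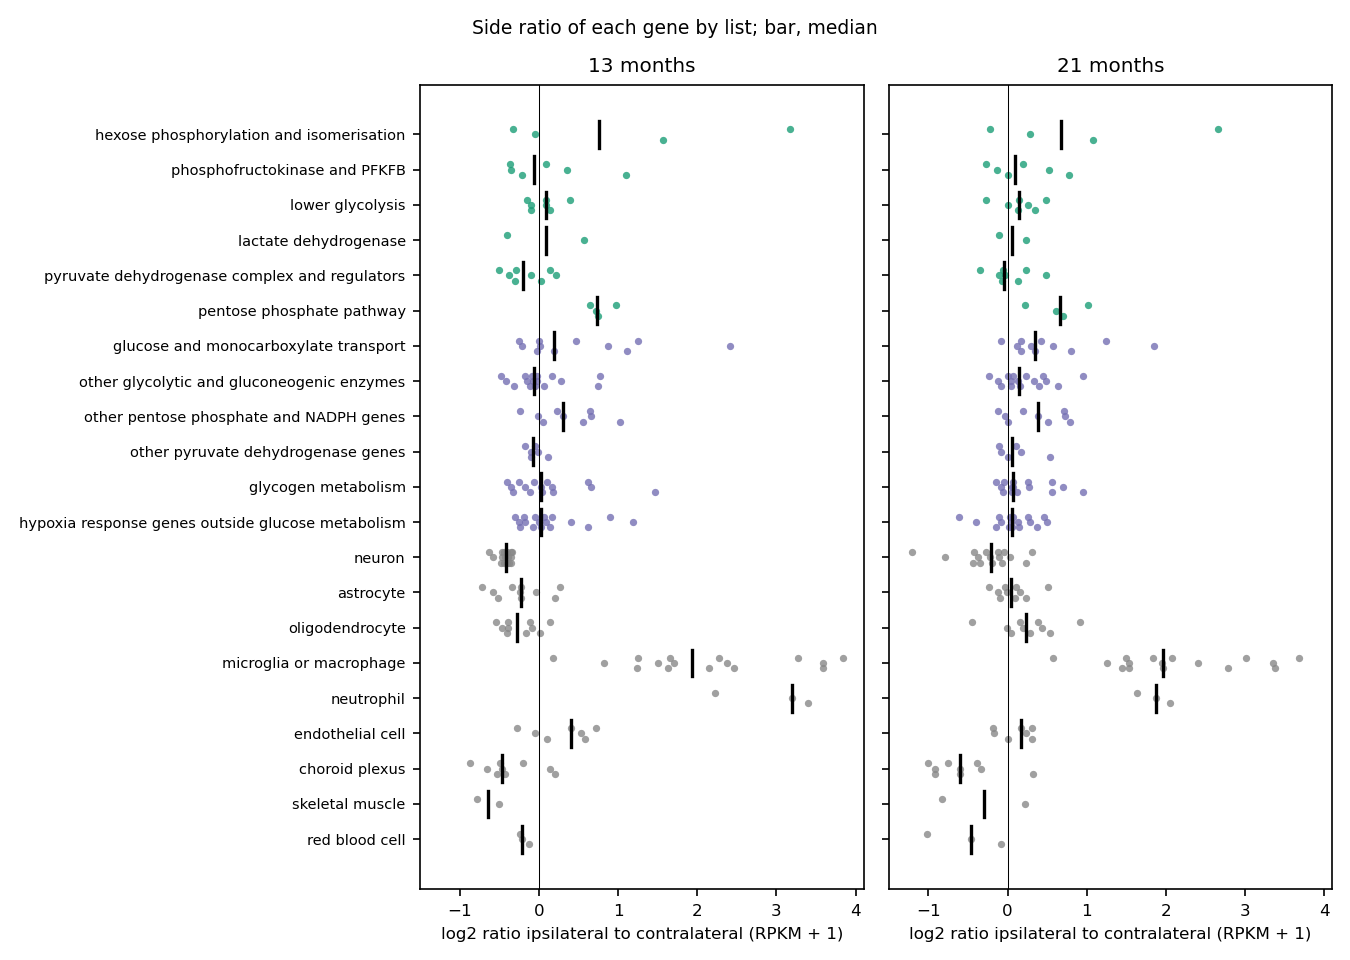
Side ratio on the log2 scale, ipsilateral over contralateral with 1 RPKM added (x axis), of each gene averaging 1 RPKM or more, by list (y axis), at 13 months (left) and 21 months (right); each point is 1 gene, the black bar is the median, green marks glucose metabolism by step, purple other pathway lists and grey cell type markers. The pentose phosphate genes lie above 0 at both ages, while lower glycolysis and pyruvate dehydrogenase lie around 0, neuron genes below 0 at 13 months and most microglia or macrophage genes far above 0, Tmem119 (0.18 and 0.57) excepted.

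Ages were compared on each side to ask how these genes differed between adult and old rats. On neither side did any of the 31 members reach a log2 ratio of 1, where 0.321% of all genes were higher and 0.658% lower ipsilaterally and 0.206% and 0.132% contralaterally. Contralaterally Pdk4 alone passed a smaller ratio of 0.5 in either direction (0.87, against 0.905% of all genes higher), a ratio of 2.29 in RPKM. With 0.1 RPKM added in place of 1 its log2 ratio was 1.15. On the ipsilateral side Pdk4 (0.73), Pgam1 (0.65) and Pdk2 (0.62) were higher at 21 months by at least 0.5, against 6.53% of all genes, and Hk3 (-0.73) and Hk2 (-0.51) lower by as much, against 5.94%. Whether both libraries of an age drew on the same brains is not stated, so the Pdk4 values of both sides may not be independent. Subtracted between ages, 21 minus 13 months, the side ratio differed by at least 0.5 for Pdk2 (0.75) and Pgam1 (0.64), against 9.79% of all genes, and at most -0.5 for Hk3 (-0.50) and Pgls (-0.53), against 6.92%. No member reached 1 or -1, against 0.65% and 0.757% of all genes. For Hk3 the difference was 0.19 with 0.1 RPKM added, the opposite sign. These differences were not tested, since 1 library per group leaves no spread.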

How the data were processed

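Polyadenylated RNA of rat brain was measured in 4 libraries, 1 per side and age. Per the labels' protocols, RNA was pooled from 9 brains, and 10 µg of total RNA per sample went into directional libraries of 200 to 500 bp products. Tools named per the submitters' processing notes are cutadapt, TopHat2 and edgeR, with no version or role, and the build named is the human GRCh38, although the gene identifiers are rat Ensembl ones; chromosomes are those of the table. The deposited values are RPKM made by the authors, rounded to 2 decimals; counting, gene lengths and the filter for listed genes are not stated in these sources, and no read depth could be derived. Column names were matched to samples by age and side code. Genes were found by symbol, with the highest of repeated entries used, or by an older name in RefSeq's GRCr8 table for lists outside the 37, each row being counted once. An item is not reported here.

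Analysis used log2(RPKM + 1) for genes averaging 1 RPKM or more, in Python 3.11.15, and limma 3.58.1 in R 4.3.3 with eBayes, two-sided. The limma step was also run on simulated data with independent noise drawn from its own fitted spread. Such data meet the model by design, so that run cannot check the p-values of these pooled libraries. With no statement of separate animals per library, the limma p-values measure the spread between these libraries only. That spread is drawn by eBayes toward a value common to all genes tested, so that Hk1 and Taldo1 both had an SE of 0.17. All members were described; of other lists those that passed and the 2 highest and 2 lowest by the smaller side ratio of like sign could be named, and Rpe, Slc2a1, Snap25, Syt1, Cd68 and Tmem119 were named after their values were seen. The members and lists were chosen with earlier results of these data known. Alternatives were a pseudocount of 0.1 RPKM, no filter, a mean of at least 5 RPKM, 2 rescalings, summed entries, a threshold of 0.5 and an intensity trend.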

Additional observations from a re-analysis of the deposited data

Results flagged for a closer look

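For 2 genes the log2 side ratio had opposite signs at the ages and differed by at least 0.5; with 1 library per group the difference was not tested. A difference of at least 0.5 in this direction, whatever the signs, was found in 9.79% of all genes and in 6.45% of the members tested. For Pdk2 it was 0.75 (21 minus 13 months), from -0.51 to 0.24. For Pgam1 it was 0.64, from -0.15 to 0.49. In both genes the contralateral libraries were close, at 20.2 and 18.4 RPKM for Pdk2 and at 132 and 133 RPKM for Pgam1, and the ipsilateral ones differed.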

How the results depend on the processing

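The 6 genes that rose in limma (Hk2, Hk3, Pfkfb3, Taldo1, Tkt and Rpia) passed with 0.1 RPKM added, with both rescalings, with summed entries and with an intensity trend. Their highest adjusted p in limma was 0.0487 (rescaling to the sum without mitochondrially encoded genes). Hk3 is among them only as a description, since Hk3 passed the filter on low values through its ipsilateral libraries. Among genes averaging 5 RPKM or more, 4 of 4 tested passed, while Hk3 and Rpia were below it. Over all 12160 genes tested, 99 fell and 1618 rose, against 247 and 1538 with median-ratio scaling. Of the 8018 genes averaging 5 RPKM or more, 40 fell and 841 rose. With no filter 0 members passed in limma. Median-ratio scaling and rescaling without mitochondrially encoded genes moved the all-gene median of the 21 month side ratio by -0.09 and -0.10; 1 member, Hk3, then reached a ratio of 1 at 21 months in place of 3, with Hk2 at 0.99 and 0.99 and Taldo1 at 0.91 and 0.90. The fitted change of Aldoa, which did not pass, turned from 0.02 to -0.0416 and -0.0862. With 0.1 RPKM added 1 member (Pdk4) passed a contralateral age ratio of 1. At a threshold of 0.5 the side counts were 8 higher and 1 lower at 13 months and 7 higher at 21 months, the ipsilateral age counts 3 higher and 2 lower, the contralateral one 1 higher, and the difference of side ratios 2 higher and 2 lower. No paired analysis was possible because the labels carry no replicate numbers to pair animals by; the limma fit itself compares the sides within each age. Precision of low values is unknown, since no depth is given.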

Other observations

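Some enzymes and transporters beside these pathways were picked out after their values were seen. Among them Pgm5 (adjusted p = 0.125) and Slc37a4 (adjusted p = 0.445) did not pass in limma. Slc37a2, a sugar phosphate transporter, had 7.33 and 0.97 RPKM at 13 months and 3.33 and 0.65 RPKM at 21 months. Its fitted log2 change of 1.74 ± 0.19 is a description only, since Slc37a2 passed the filter on low values through its ipsilateral libraries. Dera, which cleaves deoxyribose phosphate into a triose of glycolysis, had 12.6 and 5.65 RPKM and 12.7 and 5.36 RPKM (1.07 ± 0.17, adjusted p = 6.16e-05). Phgdh, which draws 3-phosphoglycerate from glycolysis into serine, had 39.75 and 44.0 RPKM at 13 months and 72.45 and 43.5 RPKM at 21 months, so that the 21 month ipsilateral library stood above the others, as it did for Pgam1, and it did not pass (adjusted p = 0.409).

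Summed over the 35 members, glucose metabolism genes took 0.58% and 0.61% of all RPKM at 13 months and 0.64% and 0.61% at 21 months, ipsilateral first. Of RPKM without the mitochondrially encoded genes, whose share was lower ipsilaterally, they took 0.72% and 0.80% at 13 months and 0.81% on both sides at 21 months.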
